A study of Gallus gallus with 6 samples.

Results

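AP-1 is a family of transcription factors that act as dimers of Fos, Jun, ATF, BATF and Maf proteins, here taken as the genes FOS, FOSB, FOSL2, JUN, JUND, ATF2, ATF3, BATF, BATF3 and MAFF. The members were taken by gene symbol from a list made with earlier results of these data known. Of the 10 listed genes 9 had a row in the deposited tables of 14903 genes, and all 9 were among the 11091 genes with enough reads to be tested. FOSB had no row under its symbol and was not analysed here. The libraries came from HD11 cells, a wild-type chicken macrophage-like line transformed by the myc-carrying virus MC29. They comprised 3 mock libraries, from untreated cells, and 3 IFN-beta libraries, from cells exposed to the recombinant chicken form of this type I interferon (100 ng/mL, 3 h). The labels give no harvest time for the mock cells and the same batch for all 6 libraries, and all results rest on a single cell line.

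The proteins of this family share a basic region that contacts DNA and a leucine zipper that joins the partners of a dimer. Fos proteins pair mainly with Jun proteins, whereas Jun proteins can also pair with themselves, with ATF proteins or with BATF proteins. In mammalian macrophages FOS, JUN and ATF3 are known as immediate early genes, which are transcribed within minutes to hours of a stimulus from factors already present in the cell, while ATF2 is mainly controlled by phosphorylation through the stress-activated MAP kinases. BATF proteins and the small Maf protein MAFF lack a transactivation domain and act through their partners.

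Total counts were 15665594 to 15885227 per library, so depth was nearly even. Of 18 macrophage markers found, 16 had at least 1 TPM (a transcript level normalised for gene length and depth) in every library, among them CSF1R, SPI1 and MARCO. The exceptions were MRC1, at most 0.38 TPM, and LYZ, at most 1 TPM. The summed TPM of the macrophage markers was 4726 to 4821 in the mock libraries and 5570 to 5635 in the others. Single markers went both ways by mean TPM. SPI1 went from 382 to 551 and MPEG1 from 53.1 to 117, whereas CSF1R went from 276 to 239 and ITGB2 from 46.1 to 27.9. Of 14 markers of other cell types found, 8 stayed under 1 TPM in all libraries, with the B cell gene CD79B and the collagen gene COL1A1 at or near 0. The endothelial marker PECAM1, at 5.22 to 8.54 TPM, the B cell gene BLNK, at 4.52 to 6.91 TPM, and the liver gene ALB, at 1.66 to 2.29 TPM, were at 1 TPM or more in all libraries. CD247, CD3D and IGLL1 passed 1 TPM in some libraries only, with highest values of 1.97, 1.11 and 1.15 TPM. The sum of all 14 was 17.5 to 19.95 TPM in the mock libraries and 15.4 to 16.02 TPM in the others. In bulk libraries, more cells that transcribe a gene and more RNA per cell cannot be told apart.

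The comparison of IFN-beta with mock asked how the cells' transcripts had changed at 3 h, and here which AP-1 subunits had changed. Of the 9 tested subunits 7 rose, none fell and 2 did not pass. The 7 that rose were MAFF, FOS, FOSL2, ATF3, BATF3, JUND and JUN, with folds of 2.18 to 4.07, and the 2 that did not pass were ATF2 and BATF. Across all tested genes 24.3% rose, 22.4% fell and 46.7% did either by the same test, edgeR's quasi-likelihood test at a Benjamini-Hochberg adjusted p under 0.05. All 7 had an estimated fold of at least 2, and 3.26% of all tested genes both rose by the test and reached that fold. However, the approximate 95% interval of BATF3, 1.79 to 3.89, reached below 2. On log2(TPM + 1) BATF3 (0.90) and JUN (0.99) were under a log2 fold change of 1. In the same 7 subunits every IFN-beta library lay above every mock library, a pattern seen in 27.5% of all tested genes, and no subunit showed the opposite pattern, which held for 26.3%. No subunit was lower at an unadjusted p under 0.05 or by DESeq2 either. The median log2 fold change was 1.40 over the 9 subunits and -0.001 over all tested genes. The split over all genes depended on the scaling, at 2697 up and 2480 down here against 1734 up and 4008 down with scaling by library size alone, 2020 and 3356 with upper quartile factors and 1376 and 3823 on log2(TPM + 1), whereas 7 subunits rose and none fell under each of the 16 alternatives tried.

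**Figure D1:**
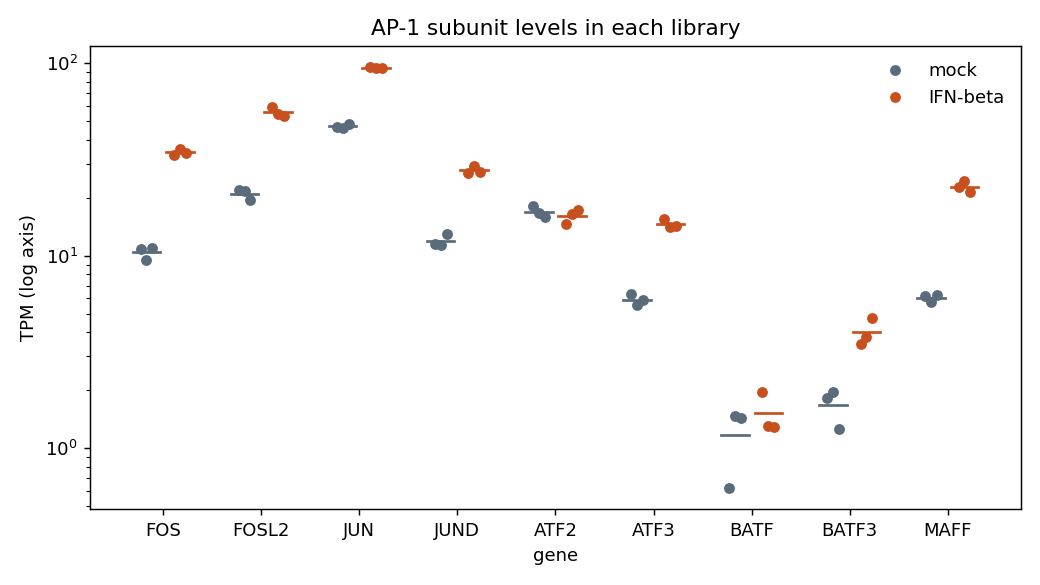
TPM (log axis) of each AP-1 subunit in the 3 mock and 3 IFN-beta libraries, with points for libraries and lines for group means. The groups are apart for 7 genes and overlap for ATF2 and BATF, and by the deposited TPM JUN is the highest gene in both groups, at 47.1 and 94.8 TPM.

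Among the Fos genes, FOS encodes the founding Fos protein, whose mRNA is short-lived. Its levels in CPM (counts scaled to the effective library size), were 15.7, 13.9 and 16.5 in the mock libraries and 52.1, 57.4 and 55.7 in the IFN-beta libraries. The lowest IFN-beta library was thus above the highest mock library by a wide margin. The log2 fold change was 1.84 (SE 0.07, n = 3 per group), a fold of 3.59 with an approximate 95% interval of 3.25 to 3.95 and an edgeR adjusted p (Benjamini-Hochberg) of 1.2e-14.

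FOSL2 encodes the Fos-related protein Fra-2, which lacks the strong transactivation domain of FOS. It had the most reads of the family, with 91.6, 93.9 and 87.4 CPM in mock and 272, 258 and 256 CPM in IFN-beta. The groups were well apart and the libraries of each group lay close together, with coefficients of variation of 3.64% and 3.30%. Its log2 fold change was 1.53 (SE 0.04), with an edgeR adjusted p (Benjamini-Hochberg) of 6.8e-17, the smallest among the subunits.

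JUN encodes the central partner of the family and was first known from an avian sarcoma virus. It stood at 48.3, 48.2 and 52.5 CPM in mock and at 107, 108 and 109.8 CPM in IFN-beta. The IFN-beta libraries were nearly equal to each other, with a coefficient of variation of 1.45%. Its log2 fold change of 1.12 (SE 0.05) was the lowest among the subunits that rose, with an edgeR adjusted p (Benjamini-Hochberg) of 1.5e-13.

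JUND encodes a Jun protein that in mammals is present in resting cells and restrains proliferation. Its levels were 40.8, 40.4 and 47.6 CPM in mock and 102, 115 and 108 CPM in IFN-beta, with no overlap. The log2 fold change was 1.33 (SE 0.06) with an edgeR adjusted p (Benjamini-Hochberg) of 4.3e-13. JUND was the single subunit whose deposited counts were not whole numbers, so some of its reads were divided with other features and its level is less certain.

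The ATF genes differed from each other. ATF3, which in mice represses inflammatory genes after Toll-like receptor signalling, had 10.8, 9.58 and 10.6 CPM in mock and 28.4, 26.6 and 27.3 CPM in IFN-beta. Its libraries did not overlap, and its log2 fold change was 1.41 (SE 0.08) with an edgeR adjusted p (Benjamini-Hochberg) of 1.6e-11. ATF2, a target of the p38 and JNK kinases, had 20.2, 18.5 and 18.3 CPM in mock and 17.4, 20.1 and 21.5 CPM in IFN-beta. The lowest and the highest of these 6 values both belonged to IFN-beta libraries. Its log2 fold change was 0.05 (SE 0.09, adjusted p 0.67), and its fold of 1.03 had an approximate 95% interval of 0.913 to 1.17, so a change as large as that of JUN lay outside the interval. Its sign turned under library size alone (-0.04), upper quartile factors (-0.01) and the TPM scales (-0.07), none of which gave a call.

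The BATF genes were the lowest of the family. BATF3, a factor of dendritic cell development in mice, had 14, 14 and 11 reads in mock and 24, 34 and 40 reads in IFN-beta. These correspond to 0.866, 0.860 and 0.679 CPM in mock and 1.56, 2.22 and 2.62 CPM in IFN-beta. The groups were apart, but the IFN-beta libraries varied with a coefficient of variation of 25.1%. The log2 fold change was 1.40 (SE 0.27) with an edgeR adjusted p (Benjamini-Hochberg) of 0.00023 (0.00268 in the authors' deposited table), and the counting interval of its fold, which covers counting error only, was 1.82 to 3.95.

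BATF, a factor of T helper and B cell differentiation in mice, had 5, 12 and 12 reads in mock and 16, 11 and 11 reads in IFN-beta. One mock library was the lowest and one IFN-beta library the highest, and the other values were nearly the same in both groups. The log2 fold change was 0.46 (SE 0.37, adjusted p 0.32 by edgeR with Benjamini-Hochberg adjustment, 0.672 in the authors' deposited table). From these 29 mock and 38 IFN-beta reads the counting interval of the fold was 0.832 to 2.33, which includes both no change and the 2.18-fold rise of JUN.

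MAFF encodes a small Maf protein, which pairs with factors such as NFE2L2 and BACH1 at antioxidant response elements. It had the largest fold of the family, from 6.92, 6.45 and 7.22 CPM in mock to 27.2, 30.04 and 26.7 CPM in IFN-beta. The groups were far apart relative to their spread. Its log2 fold change was 2.02 (SE 0.09), a fold of 4.07 with an approximate 95% interval of 3.57 to 4.63 and an edgeR adjusted p (Benjamini-Hochberg) of 2.6e-13. Sorted by log2 fold change over the 11091 tested genes, MAFF stood at position 128, FOS at 145, FOSL2 at 196, ATF3 at 229, BATF3 at 232, JUND at 245 and JUN at 304.

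**Figure D2:**
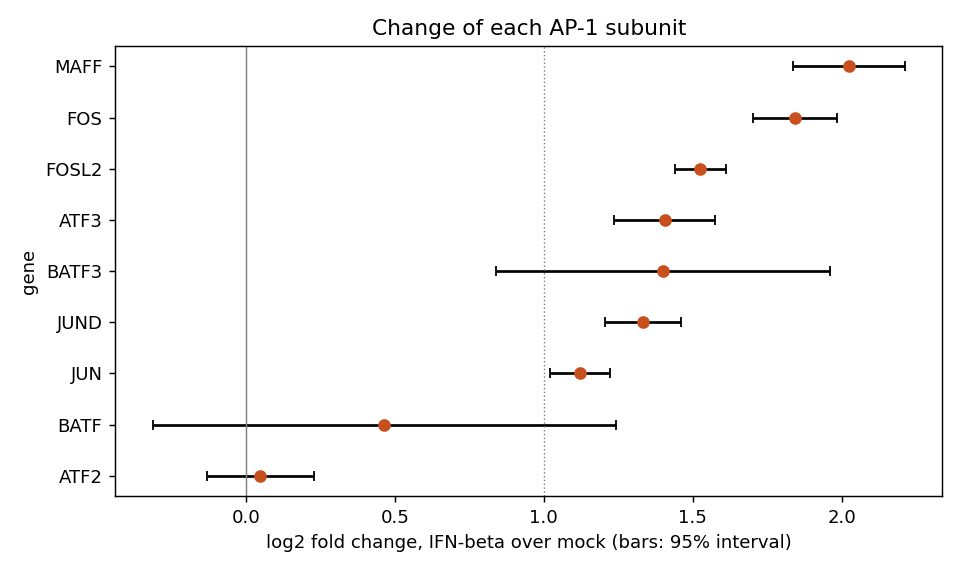
Log2 fold change of IFN-beta over mock for each AP-1 subunit (points, edgeR) with approximate 95% intervals (bars), where the solid line marks no change and the dotted line a 2-fold rise. MAFF (2.02) and FOS (1.84) have the highest values, and the intervals of ATF2 and BATF include 0.

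The small Maf genes did not move together. MAFG and MAFK encode the other small Maf proteins, and MAFK was added after its values were seen to complete the group. MAFG fell from 4.58, 4.26 and 3.74 TPM to 2.09, 2.38 and 2.02 TPM, with a log2 fold change on counts of -0.85 (SE 0.14, edgeR adjusted p 4.9e-05 with Benjamini-Hochberg adjustment). MAFK rose from 22.6, 22.5 and 24.04 TPM to 31.2, 27.9 and 31.3 TPM, and on counts from 66.9 ± 0.911 to 101.8 ± 1.63 CPM. Its log2 fold change on counts was 0.61 (SE 0.04, edgeR adjusted p 5.4e-10 with Benjamini-Hochberg adjustment), a fold of 1.52, and its rise in TPM was smaller. By TPM MAFK was the most abundant of these genes in both groups. MAFF made up 17.7 to 18.5% of their summed TPM in the mock libraries and 39.1 to 44.7% after IFN-beta, while MAFG went from 12.6 ± 1.44% to 3.93 ± 0.364% (SD, n = 3). These shares rest on the gene lengths behind the TPM, whose stability between groups was not examined for MAFG and MAFK.

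**Figure D3:**
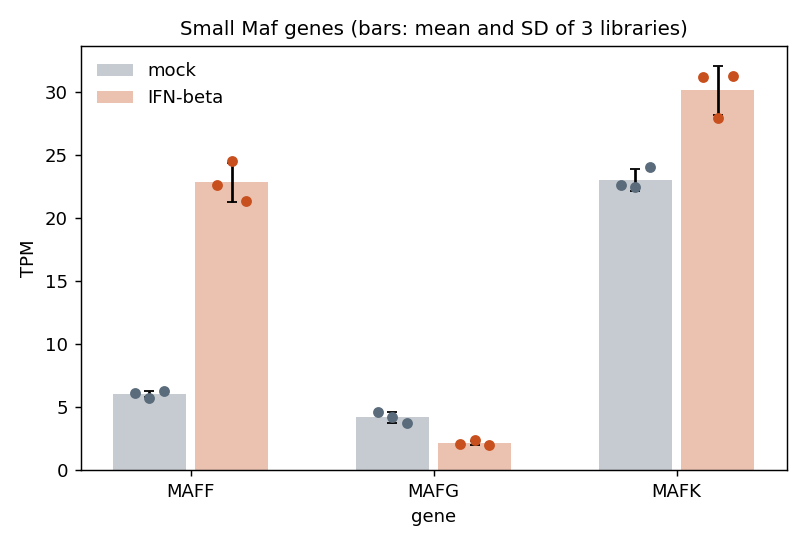
TPM of the small Maf genes MAFF, MAFG and MAFK in mock and IFN-beta libraries, with points for libraries, bars for group means and error bars for the SD of 3 libraries. MAFF and MAFK are higher in IFN-beta (22.8 and 30.1 TPM) and MAFG is lower (2.16 TPM).

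Levels can be compared between genes per length, in TPM. In mock the order was JUN (47.1 ± 1.32 TPM), FOSL2 (21.1 ± 1.29), ATF2 (16.9 ± 1.17), JUND (11.9 ± 0.899), FOS (10.4 ± 0.778), MAFF (6.05 ± 0.267), ATF3 (5.93 ± 0.391), BATF3 (1.68 ± 0.372) and BATF (1.17 ± 0.480, SD, n = 3). The ranges of MAFF and ATF3 overlapped, as did those of BATF3 and BATF, and the other neighbours in this order did not. In IFN-beta the order was JUN (94.8 ± 0.829 TPM), FOSL2 (55.5 ± 3.25), FOS (34.6 ± 1.26), JUND (27.8 ± 1.37), MAFF (22.8 ± 1.57), ATF2 (16.1 ± 1.35), ATF3 (14.6 ± 0.733), BATF3 (4.01 ± 0.677) and BATF (1.52 ± 0.375). Here the ranges of ATF2 and ATF3 overlapped and the other neighbours did not. By the deposited TPM ATF2 therefore went from the third place to the sixth, and FOS from the fifth to the third. JUN moved from the percentile 80.4 to 89.0 of all genes by mean TPM, and FOS from 53.6 to 75.7.

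The place of JUND in this order rests on the length the authors' processing gave it. On the scale of counts JUND and JUN were equal in IFN-beta, with means of 108.3 and 108.1 CPM, yet JUND had 27.8 TPM against 94.8 TPM for JUN. The ratio of count to TPM put the length used for JUND at 3.41 times that of JUN. In the RefSeq table of a later assembly the span of JUND is shorter than that of JUN, so the true level of JUND per length relative to JUN cannot be settled from these tables. At the length of JUN, JUND would stand at 40.7 ± 2.98 TPM in mock and 94.8 ± 4.65 TPM in IFN-beta, next to JUN in both groups. Within a gene the ratio of count to TPM was compared between groups after removal of each library's median shift over genes. Group means differed by 0.012 on the log2 scale for FOSL2 and by less for the other subunits. These differences were small beside the log2 fold changes of the subunits that rose. For BATF3 the ratio varied between libraries of a group, with an SD of 0.12 in mock and 0.18 in IFN-beta on the log2 scale. This adds to the spread of its TPM and leaves its difference between groups uncertain.

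Summed over the 9 genes, AP-1 transcripts rose from 123.8, 120.2 and 122.95 TPM to 273, 274 and 268 TPM, a ratio of means of 2.22. By the deposited TPM the gain was 47.6 TPM for JUN, 34.5 for FOSL2, 24.1 for FOS, 16.8 for MAFF and 15.9 for JUND, but with JUND set to the length of JUN, a choice made after seeing the data, its gain would be 54.1 TPM and the largest. The Fos genes FOS and FOSL2 together went from 31.5 ± 1.11 to 90.1 ± 2.69 TPM, and the Jun genes JUN and JUND from 59.1 ± 2.22 to 122.6 ± 1.19 TPM (SD, n = 3). The ratio of the summed Fos genes to the summed Jun genes was 0.565, 0.542 and 0.496 in the mock libraries and 0.756, 0.730 and 0.719 in the IFN-beta libraries, so the groups did not overlap. With JUND at the length of JUN this ratio was 0.329 to 0.382 in the mock libraries and 0.464 to 0.494 after IFN-beta, again without overlap. JUN and JUND had the larger sum in every library at either length of JUND. The length used for FOSL2 was 4.12 times that of JUN and was not varied. The order of the sums and of the gains therefore rests on it. On the scale of counts FOSL2 stood at 261.9 CPM in IFN-beta, against 108.1 CPM for JUN and 108.3 CPM for JUND. The sums in TPM are descriptions without a test, and they leave out FOSB, FOSL1 and JUNB, which had no row under their symbols. The median log2 change of all genes was -0.10 on log2(TPM + 1) and -0.001 on counts. The ratios and gains in TPM are therefore not on the scale of the folds from counts.

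Within families the shares also moved. ATF3 made up 25.9 ± 1.01% of the summed ATF2 and ATF3 TPM in mock and 47.5 ± 3.30% in IFN-beta. FOS made up 33.1 ± 2.68% of the Fos sum in mock and 38.4 ± 1.99% in IFN-beta, with libraries at 33.0, 30.5 and 35.9% against 36.1, 39.8 and 39.3%. JUND held 20.2 ± 0.749% of the Jun sum in mock and 22.7 ± 0.949% in IFN-beta, and with JUND at the length of JUN these shares were 46.3 ± 1.10% and 50.0 ± 1.33%. JUN was thus the larger in IFN-beta by the deposited TPM. At the length of JUN the genes were about equal there, with JUND at 49.0, 51.5 and 49.5% by library. FOSL2 was larger than FOS in all 6 libraries by the deposited TPM. The share of BATF3 in the BATF sum lay at 46.8 to 74.7% in the mock libraries and at 64.1 to 78.7% in the IFN-beta libraries, and these ranges overlapped.

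**Figure D4:**
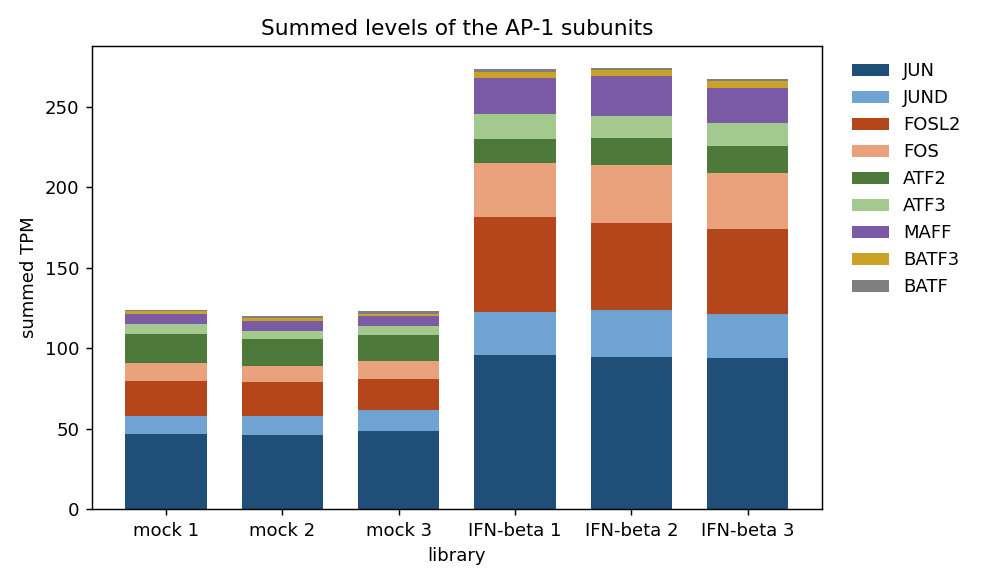
Summed TPM of the AP-1 subunits in each of the 6 libraries, stacked by gene. The sum lies between 120 and 124 TPM in mock and between 268 and 274 TPM in IFN-beta, and the layer of ATF2 keeps about the same height.

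Some of these genes lie beside each other in the chicken genome, in the gene order of the RefSeq assembly GRCg7b, which is not the build of the files and is used for order alone. A single protein-coding gene, TMEM206, lies between BATF3 and ATF3. It fell from 33.7 ± 2.74 to 27.3 ± 0.898 CPM (log2 fold change -0.30, SE 0.07, edgeR adjusted p 0.00097 with Benjamini-Hochberg adjustment), whereas both flanking genes rose with log2 fold changes of 1.40 and 1.41. JDP2, which encodes a repressive dimer partner of Jun proteins, lies between FOS and BATF. It stood at 8.88 ± 1.43 CPM in mock and 10.8 ± 1.03 CPM in IFN-beta and did not pass (log2 fold change 0.28, SE 0.12, adjusted p 0.060), so of these 3 neighbours FOS alone was called. Leaving out the subunits themselves, 24 tested protein-coding genes lay within 2 places of a subunit. Of these, 4 rose (16.7%, against 24.3% of all genes), 4 fell (16.7%, against 22.4%) and 16 did not pass, with a median log2 fold change of 0.03.

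The profiles most like those of the 3 subunits with the largest folds were sought over the 6 libraries by the distance of log2 CPM centred for each gene. NFKBIA, the inhibitor of NF-kappaB, was nearest to MAFF with a distance of 0.076 and second nearest to FOS with 0.197. Next to MAFF came the phosphatase gene DUSP8 (0.188) and the kinase gene TESK1 (0.200). CEBPD, a bZIP factor of the acute phase response, was nearest to FOS (0.167), and the phosphodiesterase gene PDE4B was the third (0.239). FOSL2 was most like ICOSLG, a co-stimulatory ligand (0.077), the lysosomal lipase gene LIPA (0.101) and PKIG, an inhibitor of protein kinase A (0.105). With 2 groups this measure mainly reads the size of the change, and it was used as a description.

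Other bZIP factors, the wider class with a basic region and a leucine zipper, moved both ways. Of 30 tested, 13 rose (43.3%, against 24.3% of all genes), 7 fell (23.3%, near the 22.4% of all genes) and 10 did not pass, with a median log2 fold change of 0.12. FOSL1, JUNB and BATF2 had no row under their symbols and were not analysed here. CEBPB, a myeloid regulator of inflammatory genes, rose from 52.4 ± 3.51 to 348 ± 12.6 CPM. CREB5, a close relative of ATF2, rose from 8.02 ± 0.392 to 32.2 ± 1.25 CPM, and CEBPD rose from 24.2 ± 0.583 to 82.5 ± 3.19 CPM. The log2 fold change was 2.01 for CREB5 and 0.05 for ATF2, a difference that was not tested. Among those with at least 5 CPM in the higher group, the largest decreases besides MAFG were in CREBZF and the large Maf gene MAF. CREBZF fell from 9.66 ± 0.510 to 5.48 ± 0.709 CPM and MAF from 6.76 ± 0.439 to 4.95 ± 0.188 CPM. Below that level BACH2 fell further on the log2 scale (-0.88, SE 0.16), from 4.46 ± 0.290 to 2.41 ± 0.358 CPM.

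The MAP kinase cascades phosphorylate AP-1 proteins and the factors that switch on their genes. Of 31 tested kinases and scaffolds 13 rose (41.9%, against 24.3% of all genes), 11 fell (35.5%, against 22.4%) and 7 did not pass, with a median of 0.07. The split was 9 up and 15 down with library size alone, 10 and 15 with upper quartile factors and 9 and 14 on log2(TPM + 1). Over all genes the split at these settings was 1734 and 4008, 2020 and 3356, and 1376 and 3823. The list median less that of all genes was 0.07 in the main fit and under both other scalings, and 0.05 on log2(TPM + 1). RPS6KA2, a kinase of the RSK group downstream of ERK, rose from 18.1 ± 1.08 to 48.1 ± 2.05 CPM. MAP3K8, a kinase that activates ERK in macrophages, rose from 34.5 ± 1.69 to 80.3 ± 1.64 CPM, and MAP3K14, the NF-kappaB-inducing kinase, rose from 70.5 ± 1.29 to 109 ± 4.15 CPM. MAPK14, the p38 alpha kinase that phosphorylates ATF2, fell from 317.5 ± 8.76 to 206 ± 5.80 CPM. MAP3K4, an activator of p38 and JNK, fell from 36.0 ± 0.337 to 20.2 ± 0.994 CPM, and RPS6KA5, the p38- and ERK-activated kinase MSK1, fell from 98.9 ± 4.82 to 64.6 ± 4.75 CPM. Below 5 CPM in the higher group, MAP2K6 fell further on the log2 scale (-0.92, SE 0.19, against -0.83 for MAP3K4), from 3.37 ± 0.223 to 1.78 ± 0.396 CPM. These are transcript levels, and phosphorylation was not measured.

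Among 14 tested activators of FOS and JUN transcription, 6 rose (42.9%, against 24.3% of all genes), 4 fell (28.6%, against 22.4%) and 4 did not pass, with a median of -0.02. The split was 5 up and 7 down with library size alone, 5 and 6 with upper quartile factors and 4 and 5 on log2(TPM + 1). The split over all genes moved the same way, as given above. The list median less that of all genes was -0.02 in the main fit and at each of these settings. SRF, the factor that binds the serum response element of FOS, rose from 20.2 ± 0.790 to 42.7 ± 2.53 CPM (log2 fold change 1.08, SE 0.06). Its coactivators went opposite ways, with MKL2 rising from 83.5 ± 5.49 to 118.6 ± 4.60 CPM and MKL1 falling from 104.5 ± 2.57 to 65.2 ± 2.18 CPM. STAT3 rose from 279 ± 4.28 to 355 ± 5.60 CPM. MEF2C and MEF2D, which act at the JUN promoter in mammals, fell from 79.2 ± 7.01 to 55.6 ± 1.80 CPM and from 98.9 ± 7.06 to 60.2 ± 2.40 CPM.

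Genes listed as partners and brakes of the family, MAP kinase phosphatases (DUSP genes) included, rose more often than they fell. Of 21 tested, 12 rose (57.1%, against 24.3% of all genes), 2 fell (9.52%, against 22.4%) and 7 did not pass, with a median of 0.25. The share that rose rests in large part on the phosphatase genes DUSP1, DUSP4, DUSP5, DUSP8, DUSP10 and DUSP16. The 7 that did not pass were COPS5, FBXW7, RFWD2, NCOR1, SIRT1, DUSP6 and DUSP14. DUSP5, a nuclear phosphatase of ERK, rose from 3.35 ± 0.282 to 45.3 ± 0.718 CPM, DUSP8, a phosphatase of JNK and p38, from 12.15 ± 0.967 to 49.4 ± 2.52 CPM, and TRIB2, a pseudokinase that promotes degradation of C/EBP proteins, from 36.9 ± 0.992 to 119.9 ± 0.801 CPM. DET1, part of a ubiquitin ligase for JUN in human cells, stood at 49.0 ± 3.99 and 43.8 ± 0.846 CPM with an edgeR adjusted p (Benjamini-Hochberg) of 0.032, but this p was 0.207 or 0.0596 when mock replicate 1 or 2 was left out, and 0.102 or 0.0919 when IFN-beta replicate 2 or 3 was. Of the IRF partners of BATF proteins, named after their values were seen, IRF8 rose from 330.1 to 396.6 CPM, and IRF4 had too few reads for the test, 9 over the mock and 21 over the IFN-beta libraries.

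Of 33 tested genes known from mammals as AP-1 targets 12 rose (36.4%, against 24.3% of all genes), 8 fell (24.2%, near the 22.4% of all genes) and 13 did not pass, with a median log2 fold change of 0.07. The interleukin 8-like chemokine genes IL8L2 and IL8L1 and the cytokine gene IL1B rose most, with log2 fold changes of 5.13, 4.43 and 4.81, all larger than that of any subunit. These folds start from low mock means of 1.62, 0.391 and 4.28 CPM, against 57.3, 8.56 and 120.5 CPM in IFN-beta. IL12B, a subunit of interleukin 12, fell by 1.34, the pro-apoptotic BCL2L11 by 0.89 and the collagenase gene MMP2 by 0.60 on the log2 scale. Whether AP-1 proteins bound these genes was not measured.

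**Figure D5:**
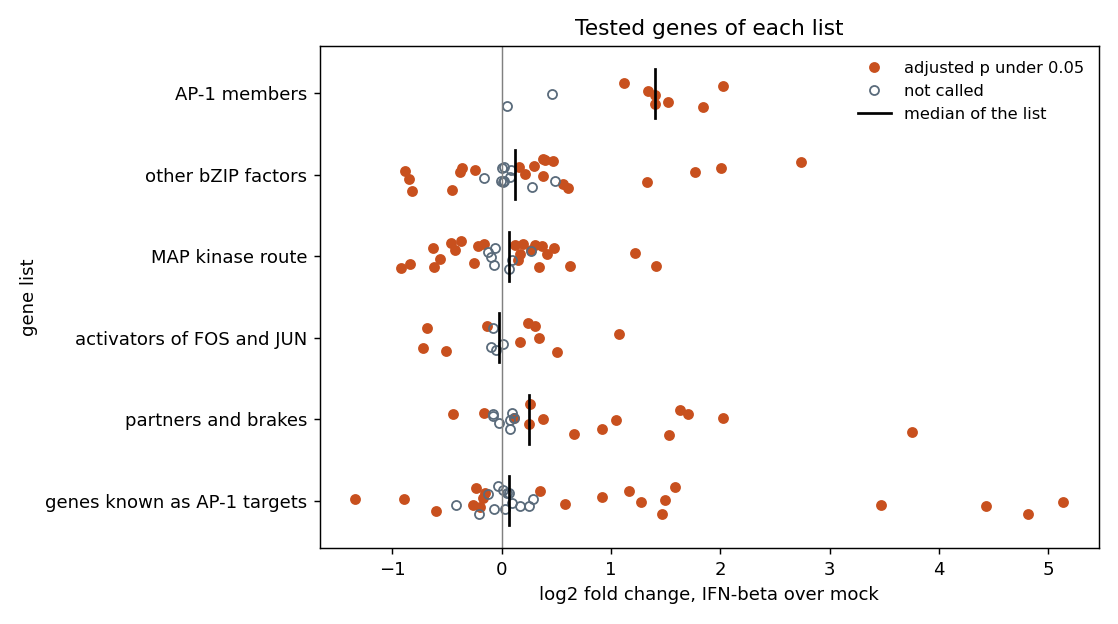
Log2 fold change of IFN-beta over mock (edgeR) for the tested genes of each list, with filled points for an adjusted p under 0.05, open points for the others and black lines for list medians. The 9 AP-1 subunits have a median of 1.40, and the medians of the other lists lie between -0.02 and 0.25.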

How the data were processed

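The members and gene lists were chosen with earlier results of these data known. The authors deposited expected counts per gene (so named since counts of 2322 genes were not whole) for all 6 libraries. The authors also deposited TPM and, in a table of their own comparison per the file headers, log2 fold changes with p-values and adjusted p-values. The submitters' processing notes name GRCg6a as build and DESeq2 as a tool. How reads were aligned, counted and assigned to strands is not given in the sources used here, so reads of overlapping or near-identical genes are uncertain.

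Expected counts were rounded. The test was run in edgeR 4.0.16 under R 4.3.3 (filterByExpr, TMM factors of 0.963 to 1.04, glmQLFit and glmQLFTest with group as the single term, Benjamini-Hochberg adjustment over 11091 genes, threshold 0.05), after a check on simulated data. SEs and 95% intervals derive from the F statistic and are approximate. Counting intervals are exact binomial ones and cover counting error only. Values are mean ± SD of 3 libraries. The labels call the replicates independent biological replicates, and libraries of a group differed by 1.67 to 4.48 times sampling noise (chi-square over degrees of freedom). An exact permutation test of 3 against 3 cannot go below 0.1. From each list the called genes with the 3 highest and 3 lowest log2 fold changes and at least 5 CPM in the higher group are named, except for an item that is not reported here. Entries without a row under their symbol were matched through the RefSeq table, where possible. Alternatives were DESeq2 1.42.0, other scalings and filters, limma 3.58.1 on log2 TPM with a pseudocount of 1 or 0.1, the replicate number as a block, and leaving out each library.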

Additional observations from a re-analysis of the deposited data

How the results depend on the processing

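The 7 subunits that rose were called with the same sign under all 16 alternatives each, ATF2 was called under none, and BATF under none of the 15 that tested it. The log2 fold change of ATF2 was -0.044 under library size alone, -0.011 under upper quartile factors, -0.066 on log2(TPM + 1) with or without the filter, -0.070 on log2(TPM + 0.1), and -0.018 to 0.13 with a library left out. Against the median of all genes, which was -0.09 under library size alone and -0.10 and -0.11 on log2(TPM + 1) and log2(TPM + 0.1), the value of ATF2 was 0.05, 0.03 and 0.04. Over all genes 1734 rose and 4008 fell under library size alone, 1376 and 3823 on log2(TPM + 1), 1377 and 3815 on log2(TPM + 0.1), and 1395 rose on log2(TPM + 1) without a filter. On that scale 8 genes of the MAP kinase list and 3 activators of FOS and JUN rose, and 7 activators fell under library size alone. Of the partners and brakes 1 fell with DESeq2 or without a filter, and 1 to 2 with a library left out. MAF was not called by DESeq2 (adjusted p 0.0529). The cause of these differences was not tested. With the replicate block 3077 genes rose and 2792 fell, and 7 subunits rose. Same-numbered libraries correlated by 0.083, 0.076 and 0.067 in their deviations from group means, each higher than with other numbers. Deviations within a group cancel out, so these correlations are not independent, and they are at most a weak hint of pairing. Since all 3 same-number correlations were under 0.1 and the labels name nothing that numbers share, the numbers were not treated as pairs. On the log2 scale BATF has the widest interval of the subunits, from 29 and 38 reads.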
